A study of Mus musculus with 36 samples.

Results

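The nuclear genes for subunits of the mitochondrial respiratory chain were read across 36 RNA sequencing libraries. The 85 members were all rows of the expression table whose gene symbol belongs to the Nduf, Sdh, Uqcr, Cox4 to Cox8 or Atp5 series, out of 18781 rows in all. By symbol, 38 belong to complex I, 4 to complex II, 8 to complex III, 17 to complex IV and 18 to complex V. The rule used names only and no measured value, but the members were chosen with earlier results of these data known. Among them, Ndufb4c, Ndufs6b, Cox6c2 and Atp5k-ps2 are annotated as processed pseudogenes, and 15 members have at least 1 near-identical copy elsewhere (at least 97% identity over at least 150 bases), so reads may be split between copies.

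The libraries came from C57BL/6 wild-type mice bearing tumors of MC38, a line of mouse colon carcinoma, and the age of the mice is not given in the sources used here. One group had received antibodies against PD1 and CTLA4 at a high dosage (immune checkpoint blockade, ICB), and the other control IgG. Heart, skeletal muscle, kidney, liver, tumor and lung each gave 3 ICB and 3 IgG libraries, so every group is from tumor-bearing animals and none from tumor-free ones. RNA was taken from whole flash-frozen tissue. Whether each library is a different animal is not stated, so a p-value here measures the spread between libraries only, and part of that spread may be technical.

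The respiratory chain sits in the inner mitochondrial membrane. Complexes I (NADH dehydrogenase) and II (succinate dehydrogenase) pass electrons to ubiquinone, complex III passes them to cytochrome c, and complex IV (cytochrome c oxidase) passes them to oxygen, while complex V (ATP synthase) uses the proton gradient to make ATP. Nearly all subunits are nuclear genes used in every tissue, but several complex IV subunits exist as a liver-type and a heart- or muscle-type isoform encoded by separate genes.

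Levels are FPKM as deposited, fragments scaled by exon length and by an effective library size. That size is the read total times a factor, and a larger factor lowers every FPKM of a library. The factors, recovered from the FPKM values, were 0.532 to 0.645 in liver and 0.724 to 0.902 in muscle and heart. They were 1.04 to 1.13 in kidney and 1.45 to 1.596 in lung and tumor. Tissue levels in FPKM carry these factors, and shares of reads do not. The libraries held 19005189 to 25512980 reads. Marker sums followed the labels: skeletal muscle markers summed to 71932 to 107385 FPKM in muscle against 446 to 794 FPKM in heart, and cardiomyocyte markers to 13652 to 19910 FPKM in heart. The 5 epithelial genes listed for the MC38 carcinoma (Krt8, Krt18, Krt19, Epcam and Cdh1) summed to only 0.557 to 2.21 FPKM in the tumor libraries, against 506 to 843 FPKM in liver, so the tumor label was not borne out by these markers. In whole tissue, fewer cells of a type and less RNA per cell cannot be told apart.

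On the FPKM scale every complex was highest in heart and next highest in muscle. As a share of reads, complex II was higher in kidney (0.181% to 0.195%, median 0.189%) than in muscle (0.144% to 0.185%, median 0.160%) by median. The median FPKM of the 85 members, taken in each library, averaged 270.3 ± 25.8 in heart, 216 ± 34.0 in muscle, 121 ± 17.5 in kidney, 107 ± 12.9 in liver, 32.4 ± 4.94 in tumor and 28.1 ± 6.01 in lung (SD, n = 6 libraries each, ICB and IgG together). Heart and muscle libraries overlapped (219 to 288 against 170 to 255), kidney and liver overlapped (103 to 154 against 95.0 to 124), and so did tumor and lung (24.4 to 38.6 against 21.4 to 35.3). On the FPKM scale the 3 pairs of tissues stood apart from each other without overlap. Heart had the highest tissue mean for 70 of the 85 members and muscle for 10, and for 79 members heart and muscle were the 2 highest tissues. Lung had the lowest mean for 53 members and tumor for 25. Summed over the members, the share of reads was 3.85% to 4.28% in heart libraries, against 0.548% to 0.764% in lung libraries. By this share muscle (2.24% to 3.10%) overlapped with kidney (2.03% to 2.62%), and liver (0.868% to 1.16%) with tumor (0.737% to 0.899%). When each library was rescaled to a common sum of FPKM (a TPM scale), the order of the lower 4 tissues changed: the average median was 221 in heart, 176 in muscle, 144 in kidney, 63.2 in liver, 68.4 in tumor and 51.4 in lung.

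**Figure D1:**
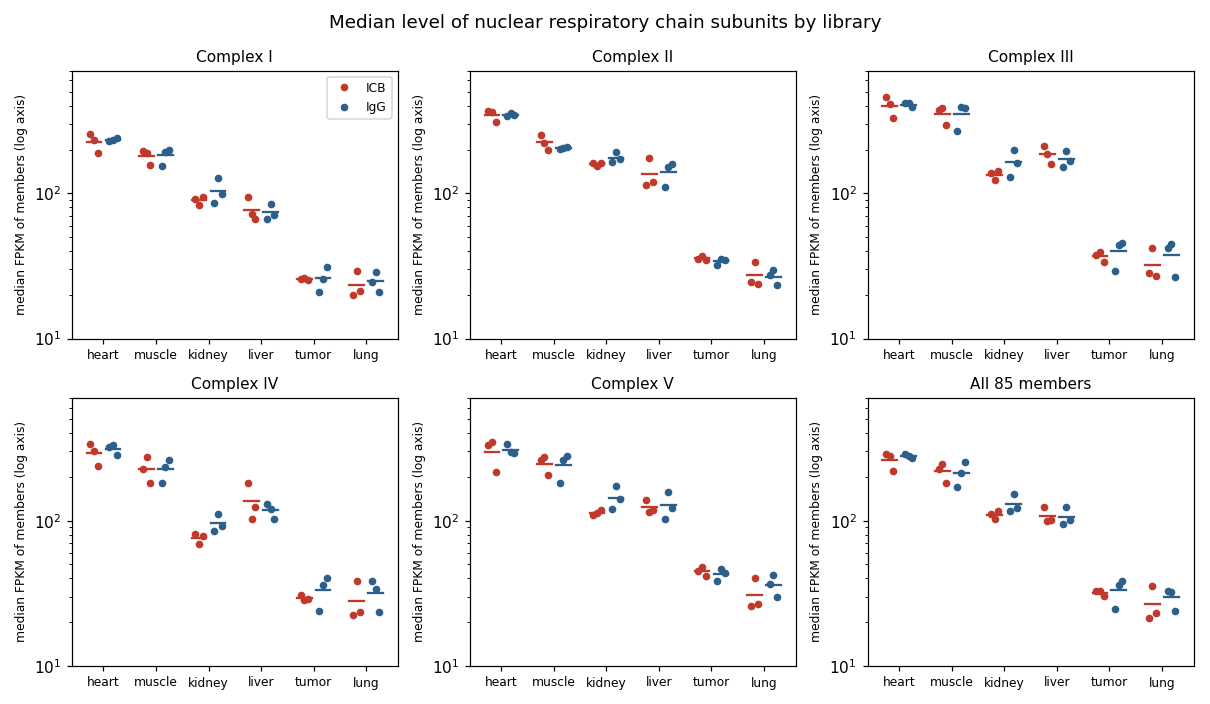
Median FPKM of the members of each complex in each library (vertical log axis), by tissue, with ICB in red left of IgG in blue; each point is a library and each bar the mean of 3. For all 85 members the 6 heart libraries lie between 219 and 288 FPKM and the 6 lung libraries between 21.4 and 35.3 FPKM.

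The complexes differed in how far heart exceeded lung. In complex II, which holds the 4 succinate dehydrogenase subunits, the member median averaged 349 ± 20.3 FPKM in heart and 27.1 ± 4.09 FPKM in lung (SD, n = 6 each), a ratio of 12.9. In complex III the averages were 405 ± 44.0 FPKM in heart and 35.02 ± 8.58 FPKM in lung, a ratio of 11.6. Complexes IV, I and V had ratios of 10.1, 9.56 and 9.06. This order did not hold for shares of reads summed over members. For complex V the median share was 1.73% in heart and 0.220% in lung. For complex IV it was 0.739% and 0.139%, a smaller ratio than in complex V. On the FPKM scale kidney stood lower than liver in complexes III (149 ± 27.3 against 179 ± 23.3 FPKM) and IV (85.9 ± 14.5 against 127 ± 29.5 FPKM). It stood higher in complexes I (96.9 ± 16.2 against 75.8 ± 11.2 FPKM) and II (168 ± 13.5 against 139 ± 27.3 FPKM). As a share of reads, complex III was higher in kidney (0.1405% to 0.208% against 0.0883% to 0.123% in liver). So was complex IV (0.336% to 0.488% against 0.159% to 0.220%). On the TPM scale 84 of the 85 members were called higher in kidney and 0 lower, so the lower levels in complexes III and IV rest on the scaling. These complex medians are descriptions, and the differences between complexes were not tested.

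Within complexes the level spread over orders of magnitude. In complex V, Atp5b, the catalytic beta subunit of the F1 part, had the highest mean over the 36 libraries at 579 FPKM, and in heart it ran from 1324 to 1409 FPKM with a median of 1373 FPKM. Its mean was 757 ± 86.6 FPKM in muscle and 79.0 ± 8.27 FPKM in lung (SD, n = 6 each). The lowest of complex V was the pseudogene Atp5k-ps2 at 7.85 FPKM. In complex I, Ndufb9, an accessory subunit, was highest with a mean of 465 FPKM and 796 to 1108 FPKM in heart. Ndufb2, another accessory subunit, was the lowest of complex I at 2.04 FPKM. In complex III, Uqcr10, a small accessory subunit, averaged 309.9 FPKM, while Uqcrc1, a core subunit, averaged 1.81 FPKM and reached at most 4.81 FPKM in heart. In complex II the flavoprotein subunit Sdha was highest at 202 FPKM and the membrane anchor Sdhc lowest at 65.8 FPKM. In complex IV the isoform Cox6a2 averaged 552 FPKM over all libraries and the pseudogene Cox6c2 averaged 2.74 FPKM.

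The length behind each FPKM bears on these comparisons between genes. For Ndufb2 it was 5628 bases against 4371 in the longest coding transcript, and for Uqcrc1 4135 against 1653, so that reads were divided by more bases than the usual transcript holds. For Atp5l, a small membrane subunit of complex V, the length was 6443 bases against 544. Levels of such genes are lower in FPKM than per transcript base, and how much of the low levels of Ndufb2 and Uqcrc1 comes from this was not tested.

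**Figure D2:**
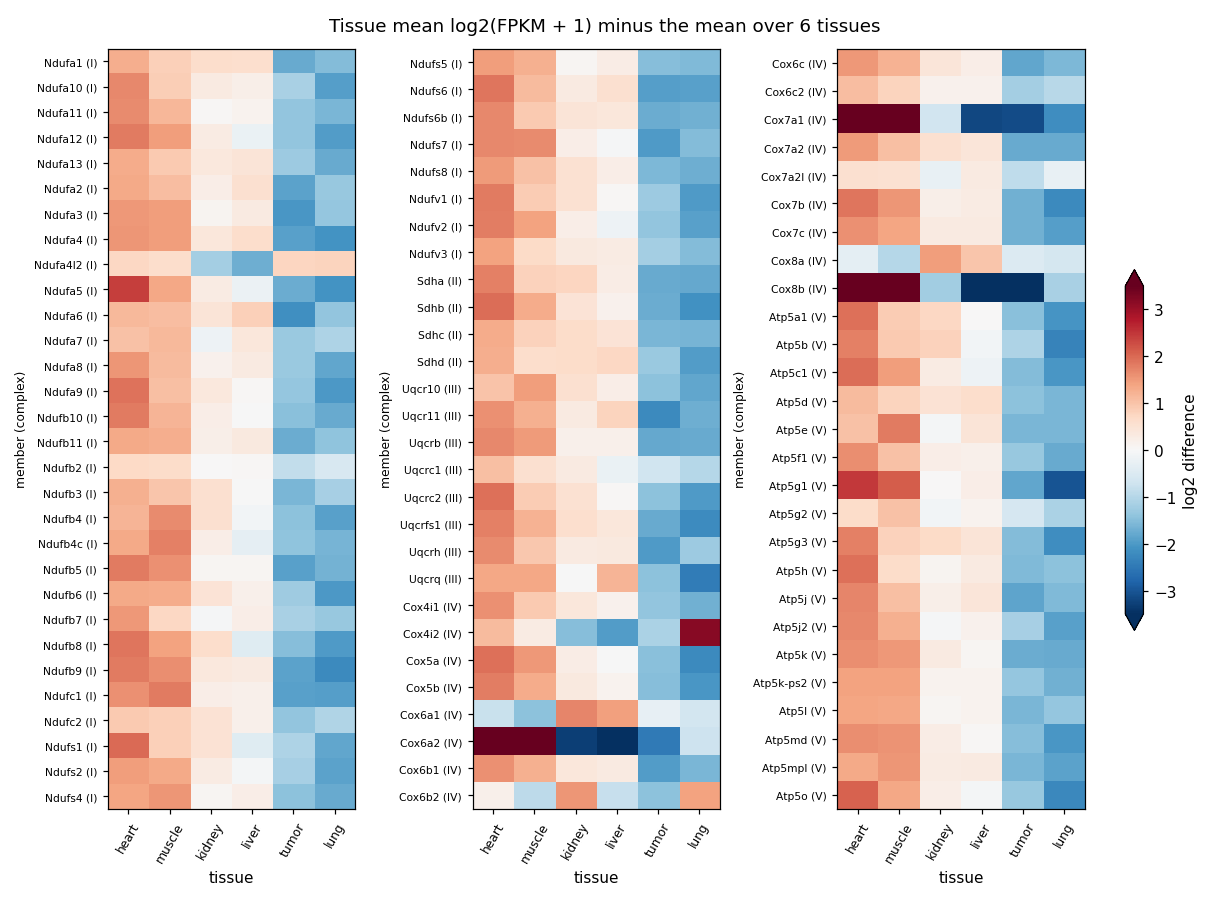
Heat map of all 85 members (rows, with complex) by tissue (columns): tissue mean log2(FPKM + 1) over 6 libraries minus the mean over the 6 tissues, colours ending at the limits of the bar. Nearly every row is red in heart and muscle and blue in tumor and lung; Cox6a1, Cox8a, Cox6b2, Cox4i2 and Ndufa4l2 do not follow this, and Cox6a2, Cox7a1 and Cox8b run past the colour limits.

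Heart and muscle were set against the mean of kidney, lung and liver to show which members follow striated muscle (limma on log2(FPKM + 1) of all 36 libraries with 12 group means, adjusted by Benjamini-Hochberg over 16123 genes). Of 85 members tested, 82 were higher and 3 lower, and 0 did not pass. Among all genes 34.3% were called higher and 46.4% lower in this comparison. The median log2 difference of the members was 1.79, beside -0.10 over all genes tested. On the TPM scale, where the median of all genes moved to -0.38, 81 were higher and 3 lower, beside 19.7% and 63.4% of all genes. All 38 members of complex I, 4 of complex II, 8 of complex III and 18 of complex V rose, with medians of 1.81, 1.40, 1.72 and 1.84. In complex IV 14 rose and 3 fell.

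The 3 members that fell were the liver-type isoforms Cox6a1 and Cox8a, and Cox6b2, an isoform known for testis. They belong to 3 of the subunits for which the genome holds a second gene. The isoforms that rose most were Cox6a2, Cox8b and Cox7a1, the heart and muscle forms of subunits 6a, 8 and 7a.

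Cox6a2 (chr7:128205435-128206387, minus strand, positions here and below on mm10 from GENCODE M21, with 10.3% of its exon bases shared with Itgad) encodes the heart and muscle form of subunit 6a, which regulates the enzyme. In heart it ran from 1491 to 2011 FPKM with a median of 1934 FPKM, in muscle from 1157 to 1873 FPKM with a median of 1405 FPKM, and in liver from 0.109 to 0.267 FPKM with a median of 0.130 FPKM. In lung it ran from 11.6 to 26.8 FPKM, in tumor from 2.67 to 11.1 FPKM and in kidney from 1.21 to 4.70 FPKM. The striated tissues therefore did not overlap with any other tissue. The log2 difference between heart with muscle and the mean of kidney, lung and liver was 8.62 ± 0.13 (SE, adjusted p = 1.93e-30). Cox6a1 (chr5:115345642-115348981, minus strand), the form of most other tissues, showed the opposite order, at 132 to 236 FPKM in heart and 73.1 to 208 FPKM in muscle, against 956 to 1431 FPKM in kidney and 848 to 1228 FPKM in liver. Its lung levels of 192 to 295 FPKM overlapped with heart. Its log2 difference was -1.97 ± 0.12 (SE, adjusted p = 3.31e-15).

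Taken as a share of the summed FPKM of both genes, Cox6a2 made up 90.2% ± 0.865 in heart, 91.7% ± 1.75 in muscle, 0.207% ± 0.122 in kidney, 0.0170% ± 0.0060 in liver, 1.74% ± 1.19 in tumor and 7.71% ± 2.41 in lung (SD, n = 6 each). The sum of both genes was 2065 ± 235 FPKM in heart, 1557 ± 314 FPKM in muscle, 1144 ± 164 FPKM in kidney and 244 ± 45.9 FPKM in lung. The isoform changed far more between tissues than the sum did.

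Cox8b (chr7:140898945-140900446, minus strand), the heart and muscle form of subunit 8, had the same pattern. It ran from 840 to 1714 FPKM in heart with a median of 1491 FPKM, and from 606 to 1864 FPKM in muscle with a median of 1337 FPKM. In kidney it ran from 2.53 to 22.5 FPKM, in lung from 3.98 to 27.1 FPKM, and it was at most 1.95 FPKM in tumor and 0.458 FPKM in liver. The log2 difference was 8.04 ± 0.22 (SE, adjusted p = 1.17e-23). Its share of the summed FPKM of Cox8a and Cox8b was 87.0% ± 2.003 in heart, 90.6% ± 2.16 in muscle and 6.06% ± 3.43 in lung (SD, n = 6 each). Cox8a (chr19:7215153-7217616, minus strand), the general form, ran from 169 to 234 FPKM in heart and 84.0 to 206 FPKM in muscle, against 580 to 876 FPKM in kidney, 418 to 713 FPKM in liver and 116 to 223 FPKM in lung. Kidney and liver did not overlap with heart or muscle, while lung did. Its log2 difference was -1.28 ± 0.12 (SE, adjusted p = 6.43e-11).

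Cox7a1 (chr7:30184144-30186078, plus strand), the heart and muscle form of subunit 7a, was present in kidney too. It ran from 724 to 1333 FPKM in heart with a median of 1146 FPKM, from 398 to 882 FPKM in muscle with a median of 766 FPKM, and from 18.9 to 29.0 FPKM in kidney. Tumor, lung and liver lay between 1.71 and 10.8 FPKM. The log2 difference was 6.59 ± 0.15 (SE, adjusted p = 1.29e-25). Unlike the partners of Cox6a2 and Cox8b, the general form Cox7a2 did not fall: it averaged 303 ± 37.7 FPKM in heart, 227 ± 38.1 FPKM in muscle, 160 ± 25.6 FPKM in kidney and 31.1 ± 9.49 FPKM in lung (SD, n = 6 each), a log2 difference of 1.55 ± 0.11 (SE, adjusted p = 8.58e-14). Cox7a1 thus took 78.2% ± 1.67 of the pair's summed FPKM in heart, 74.5% ± 3.58 in muscle, 12.1% ± 1.01 in kidney and 2.0% ± 0.407 in liver (SD, n = 6 each). Its share ran from 12.4% to 24.3% in lung and from 4.37% to 14.6% in tumor, so kidney did not stand out by share.

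**Figure D3:**
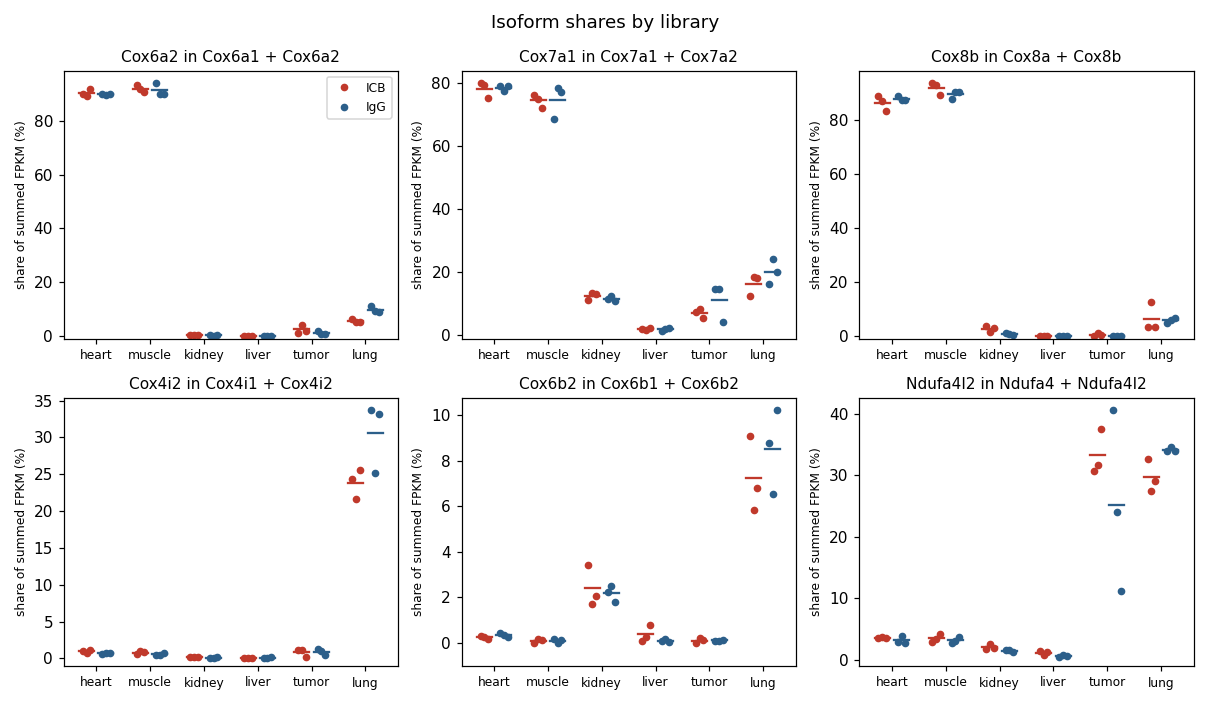
Share of an isoform in the summed FPKM of its set (vertical axis, percent; scales differ between panels) in each library by tissue, ICB in red left of IgG in blue, bars at the mean of 3. Cox6a2, Cox7a1 and Cox8b hold at least 68.5% of their sets in every heart and muscle library and at most 24.3% elsewhere, while Cox4i2 and Cox6b2 are highest in lung and Ndufa4l2 in tumor and lung.

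The promoters of 5 of these isoform genes are printed, 2 of striated muscle forms and 3 of general forms, because the isoforms carry the tissue pattern. They are RefSeq sequences of build GRCm38.p6, 250 bases before to 50 bases after the gene start, read on the gene's strand. Capitals mark every match, on either strand and with overlaps kept, to the 5 motifs searched: NRF1 as GCGCANGCGC, the ETS motif CCGGAAG bound by the nuclear respiratory factor NRF2 (GABP), the muscle E-box CAGCTG, the TATA box TATAAA, and MEF2 by its name alone.
Cox6a1, chr5:115348909-115349208, minus strand: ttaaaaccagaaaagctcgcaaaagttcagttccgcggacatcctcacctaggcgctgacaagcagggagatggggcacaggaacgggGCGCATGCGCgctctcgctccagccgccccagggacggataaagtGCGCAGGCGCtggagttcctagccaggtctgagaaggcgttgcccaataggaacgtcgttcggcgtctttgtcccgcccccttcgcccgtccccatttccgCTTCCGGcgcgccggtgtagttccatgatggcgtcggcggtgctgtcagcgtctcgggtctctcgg
Cox8a, chr19:7217567-7217866, minus strand: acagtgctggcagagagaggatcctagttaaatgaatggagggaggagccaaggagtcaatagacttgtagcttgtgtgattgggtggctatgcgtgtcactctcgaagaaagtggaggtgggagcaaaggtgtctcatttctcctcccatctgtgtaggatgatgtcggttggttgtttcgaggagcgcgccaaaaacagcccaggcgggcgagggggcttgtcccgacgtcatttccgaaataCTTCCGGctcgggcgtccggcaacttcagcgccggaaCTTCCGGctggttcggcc
Cox7a2, chr9:79759804-79760103, minus strand: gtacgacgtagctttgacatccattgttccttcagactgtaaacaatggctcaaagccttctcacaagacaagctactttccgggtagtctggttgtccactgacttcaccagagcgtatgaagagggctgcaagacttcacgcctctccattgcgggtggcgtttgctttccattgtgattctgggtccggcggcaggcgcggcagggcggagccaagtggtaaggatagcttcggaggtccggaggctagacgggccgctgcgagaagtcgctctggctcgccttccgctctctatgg
Cox8b, chr7:140900397-140900696, minus strand: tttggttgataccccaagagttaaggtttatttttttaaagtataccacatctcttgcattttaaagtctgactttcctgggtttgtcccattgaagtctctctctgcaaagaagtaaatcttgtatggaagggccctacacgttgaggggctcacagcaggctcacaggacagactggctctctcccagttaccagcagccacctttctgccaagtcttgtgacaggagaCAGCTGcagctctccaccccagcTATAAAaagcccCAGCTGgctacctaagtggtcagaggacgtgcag
Cox7a1, chr7:30183921-30184220, plus strand: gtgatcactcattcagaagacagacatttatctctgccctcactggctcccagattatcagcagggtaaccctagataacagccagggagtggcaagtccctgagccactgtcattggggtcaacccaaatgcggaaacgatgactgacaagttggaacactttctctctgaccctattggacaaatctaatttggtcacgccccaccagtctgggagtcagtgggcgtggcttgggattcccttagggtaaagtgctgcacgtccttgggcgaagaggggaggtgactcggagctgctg

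The Cox6a1 window held 2 NRF1 matches and 1 ETS match, and the Cox8a window held 2 ETS matches. The Cox8b window held 2 CAGCTG matches and 1 TATAAA match, and neither NRF1 nor ETS. Neither the Cox7a1 window nor that of the general form Cox7a2 held any of the 5. Over the 66 of 85 members matched in the promoter table, Cox6a2 not among them, 25.8% had an NRF1 match and 24.2% an ETS match, beside 5.19% and 9.93% of all 27025 genes. CAGCTG was found in 9.09% of the members and 18.3% of all genes, TATAAA in 10.6% and 15.7%, and MEF2 in 0 members and 2.16% of all genes. A match is a string of letters and does not show binding.

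The remaining isoform sets were less striated. Cox4i2, the form of subunit 4 known for lung and low oxygen (chr2:152754173-152765037, plus strand), ran from 31.8 to 60.6 FPKM in lung with a median of 41.8 FPKM. It was 7.94 to 12.7 FPKM in heart, 2.58 to 7.85 FPKM in muscle and at most 1.72 FPKM in tumor, kidney and liver, so lung overlapped with no other tissue. Its share of the set was 27.3% ± 4.97 in lung and 0.830% ± 0.203 in heart (SD, n = 6 each), as Cox4i1 dominated elsewhere. Against the mean of kidney, lung and liver it was called higher in heart and muscle by 0.77 ± 0.11 log2 (SE, adjusted p = 2.08e-07), because the mean joins high lung with low kidney and liver values. Rescaled to TPM, this difference was 0.23 and was not called.

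Cox6b2 was low everywhere, at 4.75 to 10.4 FPKM in kidney and 4.32 to 10.2 FPKM in lung, against 1.07 to 3.37 FPKM in heart and at most 0.122 FPKM in tumor. Its log2 difference between heart with muscle and the other organs was -1.07 ± 0.13 (SE, adjusted p = 7.60e-09), while its partner Cox6b1 rose by 1.72 ± 0.11. Ndufa4l2, a paralog of the complex IV associated subunit Ndufa4 that is induced by low oxygen, ran from 7.24 to 23.8 FPKM in tumor and 12.6 to 22.4 FPKM in lung, against 2.99 to 4.71 FPKM in kidney and 1.09 to 4.63 FPKM in liver. It made up 29.3% ± 10.6 of its pair in tumor and 31.96% ± 2.98 in lung, against 3.36% ± 0.466 in heart (SD, n = 6 each).

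Subunit c of ATP synthase is made from 3 genes with the same mature protein, and their mix differed too. Atp5g3 held 57.8% ± 0.609 of the summed FPKM in heart and 42.5% ± 2.49 in muscle. Atp5g2 held 13.3% ± 0.681 in heart, 24.9% ± 2.51 in muscle, 43.3% ± 5.85 in tumor and 47.8% ± 2.72 in lung. Atp5g1 held 28.9% ± 0.560 in heart and 32.7% ± 2.97 in muscle, against 6.73% ± 0.549 in lung (SD, n = 6 each). Atp5g1 rose by 3.21 ± 0.09 log2 in heart and muscle against the other organs (SE, adjusted p = 1.48e-23), and Atp5g2 by 1.198 ± 0.10 (adjusted p = 1.18e-11). Ndufa5, an accessory subunit of complex I, rose by 2.56 ± 0.11 (adjusted p = 2.99e-19). Cox7b, a small subunit of complex IV whose partner Cox7b2 is not analysed here, averaged 471 ± 62.03 FPKM in heart and 381 ± 87.9 FPKM in muscle, against 157 ± 34.3 FPKM in liver, 150.05 ± 27.3 FPKM in kidney and 26.8 ± 7.41 FPKM in lung (SD, n = 6 each), a difference of 2.29 ± 0.11 (SE, adjusted p = 6.24e-18). At the other end of the whole group, Cox7a2l was the most even member. Its highest tissue mean, 151 ± 9.22 FPKM in heart, was 2.77 times its lowest, 54.6 ± 6.96 FPKM in tumor (SD, n = 6 each).

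Heart against muscle separates the 2 striated tissues. Of 85 members 44 were called higher in heart, 3 lower and 38 did not pass, beside 25.3% of all genes called higher and 27% lower. The median difference of the members was 0.39 on the log2 scale, beside 0.00 over all genes. Complex II had 4 of 4 members called higher, complex III 4 of 8, complex IV 9 of 17, complex V 11 of 18 and complex I 16 of 38. The largest rise was in Atp5h, a subunit of the stalk of ATP synthase, which ran from 435 to 618 FPKM in heart and 182 to 260 FPKM in muscle without overlap, a log2 difference of 1.28 ± 0.13 (SE, adjusted p = 2.12e-09). Ndufs1, the largest core subunit of complex I, ran from 64.3 to 73.9 FPKM in heart and 27.2 to 41.8 FPKM in muscle, with a difference of 1.15 ± 0.10 (adjusted p = 6.06e-11).

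Ndufa5 and Uqcrc2, a core subunit of complex III, rose by 1.08 ± 0.16 and 1.05 ± 0.08 on the log2 scale, and Cox6b2 by 1.08 ± 0.20 (SE). The members called lower in heart were Atp5e (-0.76 ± 0.21, adjusted p = 0.0034), the epsilon subunit of F1, with Ndufb4 (-0.43 ± 0.17, adjusted p = 0.0358) and Uqcr10 (-0.41 ± 0.17, adjusted p = 0.0426). None of these 3 was called in the IgG libraries alone, where 29 members were called, all higher, beside 19.3% of all genes called higher. Of the muscle-type isoforms, Cox8b differed by 0.19 ± 0.34 (adjusted p = 0.711) and Cox6a2 by 0.40 ± 0.19 (adjusted p = 0.0886), and Cox7a1 rose by 0.71 ± 0.23 (adjusted p = 0.0115).

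On the FPKM scale kidney and liver were close, with the members slightly higher in kidney. On the TPM scale kidney stood further above liver, and some genes changed their order. On the FPKM scale 29 members were called higher in kidney, 5 lower and 51 did not pass, beside 32.8% of all genes higher and 31.4% lower, with a member median of 0.15 log2 beside 0.01 over all genes. On the TPM scale 84 were higher and 0 lower, beside 64.2% of all genes higher and 10% lower, and the median of all genes moved to 0.57. The largest difference among general subunits was Uqcrq, a small subunit of complex III, at 118 to 208 FPKM in kidney and 268 to 481 FPKM in liver, without overlap. Its log2 difference was -1.1997 ± 0.18 (SE, adjusted p = 7.13e-07), or -0.18 and not called on the TPM scale. Ndufb8, an accessory subunit of complex I, ran from 68.3 to 99.8 FPKM in kidney and 32.2 to 41.7 FPKM in liver, a difference of 1.01 ± 0.11 (adjusted p = 3.82e-09). Cox8b (3.06 ± 0.34), Cox7a1 (2.55 ± 0.23), Cox6b2 (2.38 ± 0.20) and Cox6a2 (1.43 ± 0.19) were higher in kidney on the log2 scale. Cox7a2l, Ndufa7, Atp5e and Uqcr11 were lower in kidney by 0.46 to 0.58 in size on the FPKM scale, and higher on the TPM scale. In the IgG libraries alone all 4 lost their call, with differences of -0.36 for Cox7a2l (adjusted p = 0.167), -0.34 for Ndufa7 (adjusted p = 0.213), -0.25 for Atp5e (adjusted p = 0.554) and -0.16 for Uqcr11 (adjusted p = 0.699).

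Tumor against lung compared the 2 tissues with the lowest levels. Here 34 members were called higher in tumor, 14 lower and 37 did not pass, beside 38.6% of all genes called higher and 36.3% lower. The share of members called higher lay close to that of all genes, and the share called lower was below it. The member median was 0.23 log2, beside 0.00 over all genes. Complex V had 10 of 18 members higher and 0 lower, led by Atp5b at 178 to 208 FPKM in tumor against 68.2 to 88.5 FPKM in lung (1.26 ± 0.10, SE, adjusted p = 4.86e-12). Atp5g1 (1.19 ± 0.14), Uqcrq (1.06 ± 0.18), Atp5o (0.95 ± 0.11) and Ndufb6 (0.80 ± 0.13) were also higher in tumor. Complex IV had 3 members higher and 6 lower, with Cox4i2 lower by the most (-4.31 ± 0.17, adjusted p = 1.24e-19). Cox8b (-2.97 ± 0.34), Cox6b2 (-2.81 ± 0.20), Cox6a2 (-1.83 ± 0.19) and Cox7a1 (-0.96 ± 0.23) were lower as well. Cardiomyocyte markers moved with the muscle-type isoforms: their 8 genes summed to 2.01 to 14.9 FPKM in tumor and 82.1 to 155 FPKM in lung, and all 8 were called lower in tumor. So were 5 of 5 endothelial, 5 of 5 erythroid and 6 of 6 tested T and NK cell genes. The lung epithelial genes summed to 0.771 to 1.27 FPKM in tumor and 19935 to 54713 FPKM in lung. The epithelial genes listed for the carcinoma summed to 0.557 to 2.21 FPKM in tumor and 213 to 340 FPKM in lung. The skeletal muscle list and the macrophage and monocyte list did not run lower in tumor. Skeletal muscle genes summed to 5.30 to 392.2 FPKM in tumor and 3.42 to 14.4 FPKM in lung. Macrophage and monocyte genes summed to 244 to 696 FPKM in tumor and 158 to 267 FPKM in lung, and both lists overlapped. Nppa was at 0 in every ICB tumor library. The part of these cells in the differences was not tested.

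Genes that work with the members were compared in the same way. In heart and muscle against the other organs, 13 of 13 mitochondrially encoded subunits rose, as did 15 of 16 citric acid cycle genes (1 fell), 36 of 46 tested assembly factors (6 fell), 12 of 16 biogenesis regulators (1 fell) and 11 of 13 electron or ATP/ADP carriers (1 fell). Over all genes 34.3% were called higher and 46.4% lower there. Citrate synthase, Cs, averaged 451 ± 18.0 FPKM in heart and 269.6 ± 32.5 FPKM in muscle, against 103 ± 3.46 FPKM in kidney, 55.3 ± 5.76 FPKM in liver and 33.5 ± 3.18 FPKM in lung (SD, n = 6 each). Slc25a4, the ATP/ADP carrier of heart and muscle, averaged 2823 ± 116 FPKM in heart and 1858 ± 187 FPKM in muscle, against 7.01 ± 3.60 FPKM in liver. Perm1, a regulator of muscle mitochondria, rose by 5.01 ± 0.15 log2 (SE, adjusted p = 4.10e-23). In heart against muscle, 15 of 16 citric acid cycle genes and 12 of 13 mitochondrially encoded subunits were called higher, and 19 of 46 assembly factors higher and 12 lower. The shares over all genes were 25.3% higher and 27% lower. In kidney against liver 7 of 13 mitochondrially encoded subunits and 13 of 16 citric acid cycle genes (1 lower) were called higher, and 10 of 46 assembly factors higher and 14 lower. The shares over all genes were 32.8% higher and 31.4% lower on the FPKM scale, and 64.2% and 10% on the TPM scale. The lists themselves were not tested on the TPM scale. In tumor against lung the mitochondrially encoded subunits had 1 of 13 called higher and 5 lower on the FPKM scale, with a median of -0.27 beside 0.23 for the nuclear members, and mt-Nd2 was the gene with the smallest p (-1.08 ± 0.19, SE, adjusted p = 8.40e-06). There 30 of 46 assembly factors (7 lower) and 12 of 16 citric acid cycle genes (1 lower) were called higher in tumor. The shares over all genes were 38.6% higher and 36.3% lower.

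The second question was whether ICB changed the members. No member passed in any tissue by limma with trend, where 85, 84, 84, 81, 80 and 82 members could be tested in heart, muscle, kidney, liver, tumor and lung. The rates over all genes were 0% in heart, muscle, liver, tumor and lung and 0.0168% in kidney. At an unadjusted p under 0.05 there were 1 member in heart, 1 in muscle, 9 in kidney, 2 in liver, 0 in tumor and 4 in lung, and limma-voom on recovered reads also called 0 in every tissue. Averaged over the 5 organs, 0 of 78 members passed, 2 had an unadjusted p under 0.05, and 0.258% of all genes were called. A difference of the ICB effect between the 6 tissues was called for 0 of 85 members, with 2 under an unadjusted p of 0.05, and for 0.0868% of all genes.

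**Figure D4:**
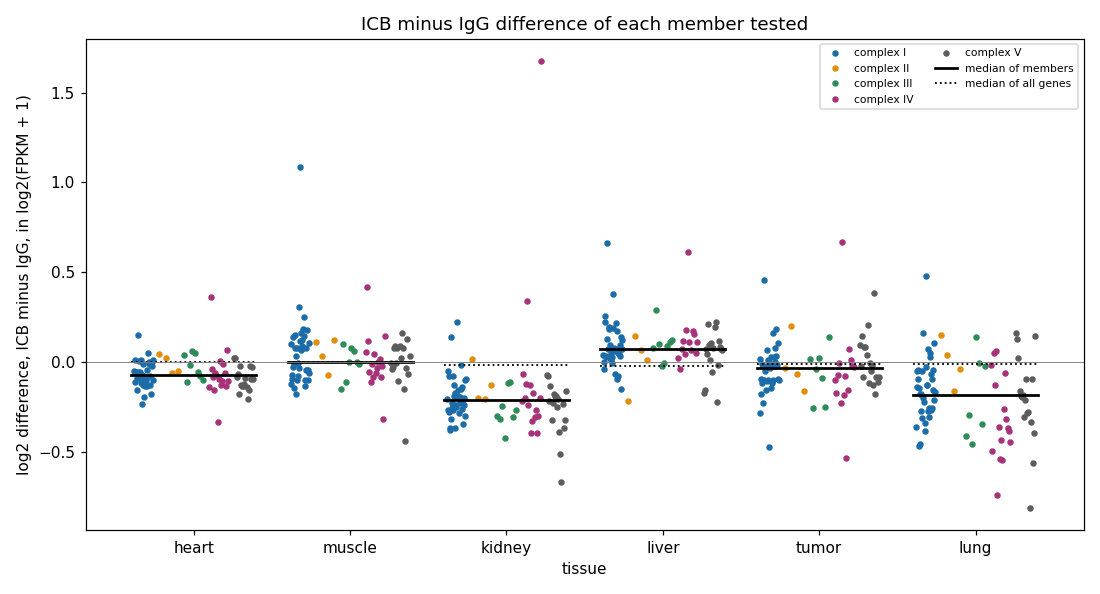
Difference ICB minus IgG in log2(FPKM + 1) (vertical axis) of each member tested in each tissue, coloured by complex; solid bars are the median of the members and dotted bars the median of all genes tested. The kidney and lung members lie mostly below zero, with medians of -0.21 and -0.18 (-0.09 and 0.03 on the TPM scale), and Cox8b in kidney (1.67) and Ndufb4c in muscle (1.08) stand highest.

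Kidney held the most one-sided pattern. Of 84 members 79 had a lower mean with ICB, and the median difference was -0.21, beside -0.02 over all genes. All 18 members of complex V and all 8 of complex III were lower, as were 36 of 38 in complex I, 14 of 16 in complex IV and 3 of 4 in complex II. In 20 members the 3 ICB and 3 IgG libraries did not overlap, 19 of them lower, which is 23.8% of the members tested beside 8.66% of all genes. Atp5k, a small subunit of complex V, had 91.1, 102 and 117 FPKM in ICB kidneys against 117, 152 and 177 FPKM in IgG kidneys. The groups just failed to overlap, and the log2 difference was -0.51 ± 0.17 (SE, unadjusted p = 0.0187 and adjusted p = 0.992 by limma). Cox6c, a small subunit of complex IV, had 72.7, 60.6 and 67.9 FPKM with ICB against 75.7, 98.9 and 91.4 FPKM with IgG (-0.39 ± 0.14, adjusted p = 0.992).

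Short genes moved the same way. Members of the shortest length class had a kidney median of -0.28 and other genes of that length -0.16, while members of the longest class, 2500 bases and over, had -0.19 and other genes 0.01. The second IgG library stood highest, with a median deviation of its members from the tissue mean of 0.37 and of other genes under 1000 bases of 0.29. Without that library the member median was -0.09. The parts of gene length and of that library in the pattern were not tested. Markers of other cell types also moved in these kidneys. The 8 macrophage and monocyte genes summed to 65.0 to 129.7 FPKM with ICB and 54.0 to 58.2 FPKM with IgG, 7 of 8 with a higher mean with ICB. The 5 endothelial genes summed to 53.4 to 53.7 FPKM with ICB and 38.1 to 50.8 FPKM with IgG, all 5 with a higher mean. The 7 T and NK cell genes summed to 1.08 to 1.24 FPKM with ICB and 0.292 to 0.787 FPKM with IgG, and the 5 erythroid genes to 212 to 349 FPKM with ICB and 497 to 693 FPKM with IgG, with 6 of 7 T and NK cell genes higher and all 5 erythroid genes lower in mean. None of these 4 sums overlapped between the groups, no gene of the 4 lists was at 0 in a whole group, and the part of these cells was not tested. The mitochondrially encoded mt-Nd3, a complex I subunit, was the only list gene called in kidney: it had 10.3, 14.2 and 11.9 FPKM with ICB against 35.5, 32.1 and 34.0 FPKM with IgG (-1.42 ± 0.13, adjusted p = 0.0173).

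Cox8b went against most members in kidney. It had 22.5, 8.40 and 21.04 FPKM in ICB kidneys against 6.00, 5.06 and 2.53 FPKM in IgG kidneys, with no overlap (1.67 ± 0.38, SE, unadjusted p = 0.00202, adjusted p = 0.992). Brown fat genes moved with it. Ucp1, the uncoupling protein of brown fat, had 39.1, 9.11 and 13.2 FPKM with ICB against 8.80, 1.84 and 1.22 FPKM with IgG. The 5 brown adipocyte genes summed to 15.2 to 59.97 FPKM with ICB and 2.59 to 17.4 FPKM with IgG, and none was at 0 in a whole group. Skeletal muscle markers summed to 22.8 to 30.1 FPKM with ICB and 20.3 to 33.7 FPKM with IgG. The part of brown fat in the Cox8b difference was not tested.

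**Figure D5:**
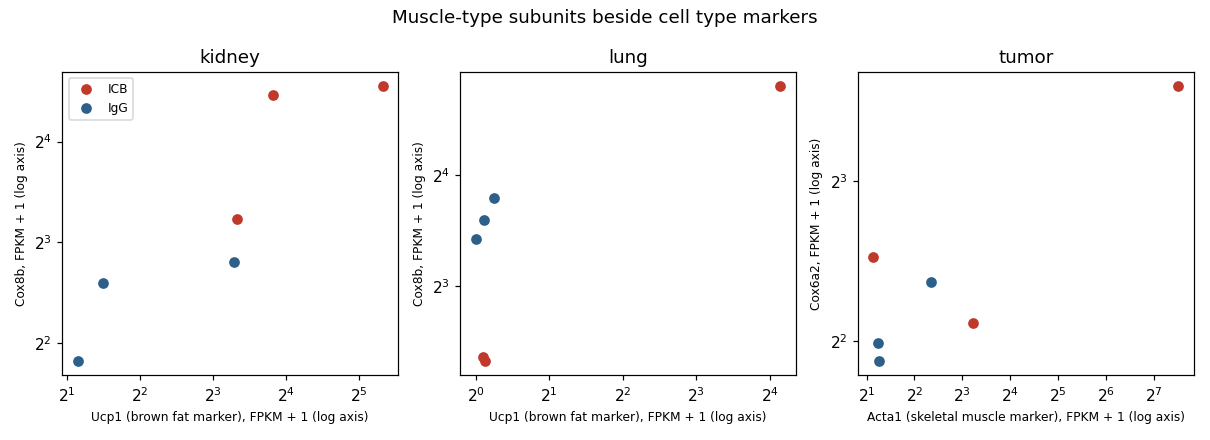
Cox8b against Ucp1 in kidney and lung, and Cox6a2 against Acta1 in tumor, each axis FPKM + 1 on a log scale; points are libraries, ICB in red and IgG in blue. The libraries highest for the marker, such as the lung ICB library with 16.7 FPKM of Ucp1 and the tumor ICB library with 180 FPKM of Acta1, are also highest for the subunit.

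Lung members were also mostly lower with ICB, 67 of 82, with a median of -0.18 beside -0.01 over all genes, but of 0.03 beside 0.17 on the TPM scale, so its sign rests on the scaling. Atp5k had 15.5, 30.6 and 16.7 FPKM with ICB against 47.0, 32.5 and 29.9 FPKM with IgG, which overlapped (-0.81 ± 0.29, SE, adjusted p = 0.988). Only 2 members had groups without overlap, beside 8.65% of all genes. Cox6a2 had 13.2, 16.5 and 11.6 FPKM with ICB against 24.6, 26.8 and 19.2 FPKM with IgG (-0.74 ± 0.19, SE, unadjusted p = 0.00484, adjusted p = 0.988). Cox6b2 had 5.73, 5.80 and 4.32 FPKM with ICB against 10.2, 6.90 and 7.39 FPKM with IgG (-0.54 ± 0.18, adjusted p = 0.988). Cox4i2 had 31.8, 43.0 and 34.3 FPKM with ICB against 60.6, 54.1 and 40.6 FPKM with IgG, with overlap (-0.49 ± 0.20, adjusted p = 0.988).

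Cell type markers moved in the lung as well. The 8 cardiomyocyte genes summed to 82.1 to 145 FPKM with ICB and 146 to 155 FPKM with IgG, and 2 of the 8 had a higher mean with ICB. The 6 lung epithelial genes summed to 19935 to 30952 FPKM with ICB and 33762 to 54713 FPKM with IgG. The 8 macrophage and monocyte genes summed to 221 to 267 FPKM with ICB and 158 to 174 FPKM with IgG, without overlap and with 8 of 8 higher. The 5 erythroid genes, all with a lower mean with ICB, summed to 346.3 to 2113 FPKM with ICB and 1577 to 15636 FPKM with IgG, which overlapped. The 7 T and NK cell genes, all with a higher mean, summed to 25.5 to 33.8 FPKM with ICB and 11.1 to 33.1 FPKM with IgG. No gene of these lists was at 0 in a whole group. The second ICB library held 27.1 FPKM of Cox8b, beside 4.11 and 3.98 FPKM in the other ICB libraries and 11.1, 12.9 and 9.76 FPKM with IgG. It also held 16.7 FPKM of Ucp1, which was at most 0.192 FPKM in the other 5 lung libraries. The part of these cells in the lung differences was not tested.

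In muscle the median difference was 0.00, as it was over all genes, and 44 of 84 members were higher with ICB. In 1 member the groups did not overlap, beside 11.6% of all genes. This was Ndufb4c, the processed pseudogene with a sequence near-identical to Ndufb4, a complex I accessory subunit. It had 34.1, 40.7 and 27.0 FPKM with ICB against 13.2, 19.9 and 13.4 FPKM with IgG (1.08 ± 0.22, SE, unadjusted p = 0.0014, adjusted p = 0.876). In 1 fit of all 36 libraries its adjusted p was 0.0430, where 0.798% of all genes were called. Ndufb4 itself had 241, 309.8 and 190 FPKM with ICB against 158, 229.6 and 305 FPKM with IgG, which overlapped, a difference of 0.12 ± 0.29 (adjusted p = 0.956). Cox4i2 averaged 5.87 ± 1.74 FPKM with ICB and 4.19 ± 1.51 FPKM with IgG, and Ndufb2 3.84 ± 0.831 FPKM and 2.92 ± 0.742 FPKM (SD, n = 3 each), with overlap in both. Since Ndufb4 and its pseudogene share sequence, their reads may have been assigned to either. Erythroid genes summed to 284 to 877 FPKM with ICB and 978 to 1517 FPKM with IgG in these muscles, without overlap. Endothelial genes (118 to 127 against 103 to 115 FPKM) and brown adipocyte genes (4.17 to 4.59 against 5.24 to 23.7 FPKM) did not overlap either. All 8 macrophage and monocyte genes and all 7 T and NK cell genes had a higher mean with ICB, and 0 of 6 white adipocyte genes did. The sums of these 3 lists overlapped. The part of these cells was not tested.

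In liver 66 of 81 members were higher with ICB, with a median of 0.08 beside -0.02 over all genes. Only Cox6c2, a processed pseudogene, had groups that did not overlap, beside 6.84% of all genes, at a mean of 3.34 ± 1.28 FPKM with ICB and 1.78 ± 0.437 FPKM with IgG (SD, n = 3 each). Without the first ICB library the liver median was -0.06. The 8 macrophage and monocyte genes, all with a higher mean with ICB, summed to 436 to 1284 FPKM with ICB and 339.4 to 544 FPKM with IgG, and their part was not tested. Ndufa4l2 averaged 3.14 ± 1.39 FPKM with ICB and 1.55 ± 0.515 FPKM with IgG, and Ndufb4c 5.80 ± 0.677 FPKM with ICB and 4.42 ± 1.88 FPKM with IgG (SD, n = 3 each), with overlap in both.

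In heart 69 of 85 members were lower with ICB, with a median of -0.07 beside 0.00 over all genes, but of 0.03 beside 0.09 on the TPM scale. Erythroid genes summed to 414 to 549 FPKM with ICB and 749 to 3884 FPKM with IgG, without overlap, and their part was not tested. The third ICB library was low, with a median deviation of its members of -0.33, and without it the median was 0.07. Its Cox8b was 840 FPKM, beside 1714.5 and 1562 FPKM in the other ICB hearts and 1574.5, 1419.7 and 1256 FPKM in IgG hearts. Cox4i2 was the only member without overlap, beside 9.76% of all genes, at 12.7, 9.58 and 10.4 FPKM with ICB against 8.03, 8.64 and 7.94 FPKM with IgG (0.36 ± 0.11, SE, unadjusted p = 0.0108, adjusted p = 0.997). Cox6b2 averaged 1.90 ± 0.731 FPKM with ICB and 2.62 ± 0.796 FPKM with IgG, and Ndufb4c 16.8 ± 3.57 FPKM with ICB and 19.3 ± 3.56 FPKM with IgG (SD, n = 3 each), with overlap in both.

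In tumor 27 of 80 members were higher with ICB and the median was -0.03, beside -0.01 over all genes. In 2 members the groups did not overlap, beside 13.1% of all genes. Sdhb, the iron-sulfur subunit of complex II, had 29.7, 33.0 and 31.0 FPKM with ICB against 25.8, 27.0 and 28.2 FPKM with IgG, a difference of 0.20 ± 0.09 (SE, adjusted p = 0.722). Ndufb4c averaged 1.43 ± 0.600 FPKM with ICB and 2.34 ± 0.633 FPKM with IgG, with overlap (-0.47 ± 0.23, adjusted p = 0.722). Cox6a2 had 3.34, 11.1 and 4.77 FPKM with ICB against 4.16, 2.97 and 2.67 FPKM with IgG, with overlap (0.67 ± 0.36, adjusted p = 0.753). The ICB library with 11.1 FPKM also held 180 FPKM of Acta1, the skeletal muscle actin, beside 8.30 and 1.21 FPKM in the other ICB tumors and 1.35 to 4.12 FPKM with IgG. The 9 skeletal muscle markers in the table summed to 5.30 to 392.2 FPKM with ICB and 6.97 to 12.9 FPKM with IgG, and none was at 0 in a whole group. The part of muscle tissue in the Cox6a2 values was not tested.

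Over the 5 organs together, 68 of 78 members were lower with ICB, with a median of -0.07 beside -0.02 over all genes. The smallest p-values were those of Ndufb4c (0.40 ± 0.12, SE, adjusted p = 0.150), Atp5k (-0.38 ± 0.18, adjusted p = 0.526) and Atp5k-ps2 (-0.32 ± 0.18, adjusted p = 0.654). On the TPM scale Ndufb4c passed, at 0.48 (adjusted p = 0.0348), where 1.2% of all genes were called. For the difference between tissues the smallest adjusted p-values were 0.402 for Ndufb4c, 0.723 for Cox6a2 and 0.822 for Cox8b. Of the functional partners, 0 genes passed in any ICB comparison apart from mt-Nd3 in kidney. Among mitochondrially encoded subunits 13 of 13 were higher with ICB in muscle, with a median of 0.39, while 11 of 13 were lower in heart, with a median of -0.47, and 0 passed in either tissue. Of all genes tested 50.6% were higher with ICB in muscle and 51.3% in heart. These subunits were not tested on the TPM scale.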

How the data were processed

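The labels describe total RNA from flash-frozen tissue, extracted with TRIzol and made into TruSeq libraries. Per the submitters' processing notes, HISAT2 2.1.0, edgeR and genome build mm10 were used. Which gene counter and annotation were used, and whether counting used strand, is not given in the sources used here. The authors deposited FPKM values, 1 column per library. All 18781 rows gave whole reads back from their FPKM steps (tolerance 0.001), 19005189 to 25512980 reads per library. The length behind the FPKM equalled the exon length of the gene in GENCODE M21 for 81.7% of 18664 matched symbols. The 15 rows without a symbol (0.0834% to 0.374% of reads) and 3 symbols shared by 2 rows stayed out of the tests. No pair of libraries of a group agreed within sampling noise (chi-square per gene 10.9 to 288).

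Each tissue's ICB and IgG libraries were compared with limma 3.58.1 with trend (R 4.3.3) on log2(FPKM + 1), two-sided, over genes that reached an FPKM of 1 in 3 or more of the tissue's 6 libraries. Tissue contrasts, the mean over organs and the difference between tissues used 1 model of 36 libraries with 12 group means. P-values were adjusted by Benjamini-Hochberg over all genes tested, at a threshold of 0.05. A difference on this scale understates the change of low genes. Scripts were tested on simulated data. The spread shared between tissues can be too small for genes that not every tissue expresses. Near-identical copies were sought with BLAST 2.17.0. Figures and levels used Python 3.11.15, numpy 2.4.6, pandas 2.3.3 and matplotlib 3.10.9.

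Alternatives were other scalings, pseudocounts and filters, limma-voom on recovered reads, IgG libraries alone, a title number block and leaving out each library. Genes named were all isoform set members, the highest and lowest member per complex, the 3 smallest p-values per ICB comparison where none passed, and the 5 largest differences each way per tissue contrast. Beyond this rule, Cox4i2 and Cox8b in lung, Cox8b in heart, Ndufb4 under ICB, Atp5l for its length, Cox7a2l as the most even member, and Cs, Slc25a4, Perm1 and mt-Nd2 were named after their values were seen. The members and lists were chosen with earlier results of these data known.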

Additional observations from a re-analysis of the deposited data

How the results depend on the processing

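The count of members called between kidney and liver moved most with the scaling, and those between heart and muscle and between tumor and lung with a minimum size of difference. On the TPM scale 84 members were called between kidney and liver (74.3% of all genes), and Cox7a2l (0.44), Ndufa7 (0.44), Atp5e (0.50) and Uqcr11 (0.56) turned to higher in kidney. The median member level on that scale was 221 in heart, 176 in muscle, 144 in kidney, 63.2 in liver, 68.4 in tumor and 51.4 in lung. In the IgG libraries alone, where fewer samples enter, 29 members were called between heart and muscle (39.5% of all genes) and 22 between kidney and liver (50% of all genes). Requiring an absolute log2 difference of at least 1 left 6 between heart and muscle, 6 between kidney and liver and 7 between tumor and lung, beside 13.9%, 25.2% and 34.8% of all genes. For ICB, 1 member was called in muscle in 1 fit of all 36 libraries and 1 over the 5 organs on the TPM scale, Ndufb4c both times, beside 0.798% and 1.2% of all genes; the cause was not tested. All other planned settings gave 0 members for ICB.

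Leaving out 1 library gave 41 to 52 calls between heart and muscle, 85 between the striated tissues and the other organs, 28 to 36 between kidney and liver, 45 to 51 between tumor and lung and 0 for ICB. With all libraries kept, these tissue contrasts called 8443, 13019, 10349 and 12075 of 16123 genes, in the same order. Uqcr10 and Ndufb4 between heart and muscle, and Atp5e and Uqcr11 between kidney and liver, lost their call without some single libraries. The median ICB difference ranged from -0.17 to 0.07 in heart, -0.15 to 0.16 in muscle, -0.33 to -0.09 in kidney, -0.06 to 0.21 in liver, -0.15 to 0.04 in tumor and -0.36 to -0.07 in lung.

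No paired analysis was possible because ICB and IgG libraries of a tissue share no title number. Across tissues, libraries with the same title number had a median correlation of 0.15 (-0.29 to 0.57, 39 of 56 pairs over 0.1), and those with different numbers of -0.04 (48 of 214 pairs over 0.1). This is a hint that numbers are shared, but not every pair was over 0.1 and the labels do not say what a number marks, so the main comparisons have no block. With the title number as a replicate block 47 members were called between heart and muscle, 85 in striated tissue, 35 between kidney and liver, 50 between tumor and lung and 0 for ICB. In the same order, the tissue contrasts called 53.8%, 81.7%, 65.2% and 75.8% of all genes with this block. With 3 libraries a group, the number of libraries limits which ICB differences can pass.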
